A study of Mus musculus with 2 samples.

Results

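The genes described here belong to the families of metalloproteinases that cut extracellular matrix and cell surface proteins, and of the inhibitors that hold them back. They were all protein-coding genes of the mouse RefSeq gene table (GRCm38.p6, the assembly that mm10 names) whose symbol marks a matrix metalloproteinase (Mmp), an ADAM protease (Adam), an ADAMTS protease (Adamts), an ADAMTS-like protein (Adamtsl) or a tissue inhibitor of metalloproteinases (Timp). The rule gave 85 genes of 21887: 23 Mmp, 19 Adamts, 5 Adamtsl, 34 Adam and 4 Timp genes. Each was given the regions of the authors' list that overlapped its annotated span widened by 5 kb on both sides, which came to 80 of 35861 regions. The series compared methylated DNA from primary chondrocytes of C57BL/6 mice at postnatal day 3, isolated from knee cartilage and treated with recombinant human BMP-2 (100 ng/ml, 24 h). One group was labelled Control and the other Uhrf1 cKO, a conditional knockout of the gene for Uhrf1, which recruits the maintenance methyltransferase to newly replicated DNA. Each group was 1 library of DNA bound by the MBD2 protein and sequenced. There was therefore no replicate check, and no difference between the genotypes could be tested. Which Cre driver was used, and how many mice gave each library, is not stated by the labels, and captured DNA does not measure Uhrf1 itself, so the genotype labels could not be checked. After duplicate removal, 9782276 Control tags and 15039206 cKO tags were kept, 44.8% and 76.1% of all tags. The list gives a Control tag count for each region and no cKO count.

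Cartilage is built on a network of collagen II filled with the proteoglycan aggrecan. Collagenases such as Mmp13 cleave the collagen triple helix, aggrecanases such as Adamts4 and Adamts5 cleave the aggrecan core protein, and Timp proteins bind the active site of these metalloproteinases. In the growth plate, Mmp13 and Mmp9 remodel hypertrophic cartilage as it is replaced by bone. Methylation of CpG sites near a transcription start usually goes with a silent gene, whereas methylation within gene bodies is common in active genes too. RNA was not measured here, so these data give regions of lost capture and no expression.

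Promoter sequences are shown first. No listed region overlapped a promoter window of these genes, which is close to the share over all promoter windows, 1.20%. Windows run from 250 bases before to 50 bases after an annotated start, are taken from RefSeq (GRCm38.p6) and are written 5′ to 3′ on the gene's strand, with every CpG in capitals. Mmp13 and Mmp3 stand for the secreted Mmp genes with few CpG, Mmp14 for a membrane-type gene with a region further inside, Mmp25 and Adam10 for the windows closest to a region, and Timp2 and Adamts2 for CpG-rich starts of genes with several regions.
Mmp13 promoter, chr9:7272264-7272563, plus strand: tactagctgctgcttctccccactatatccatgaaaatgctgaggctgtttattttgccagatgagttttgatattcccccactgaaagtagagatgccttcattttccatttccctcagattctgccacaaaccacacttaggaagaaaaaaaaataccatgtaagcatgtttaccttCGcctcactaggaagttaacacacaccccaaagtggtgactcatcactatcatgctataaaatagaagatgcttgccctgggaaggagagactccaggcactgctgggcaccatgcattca
Mmp3 promoter, chr9:7445572-7445871, plus strand: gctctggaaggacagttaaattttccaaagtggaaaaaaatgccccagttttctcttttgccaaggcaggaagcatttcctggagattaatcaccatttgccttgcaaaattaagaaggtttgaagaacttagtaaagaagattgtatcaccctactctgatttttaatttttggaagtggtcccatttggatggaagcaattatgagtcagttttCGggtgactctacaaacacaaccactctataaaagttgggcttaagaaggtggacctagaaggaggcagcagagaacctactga
Mmp14 promoter, chr14:54431348-54431647, plus strand: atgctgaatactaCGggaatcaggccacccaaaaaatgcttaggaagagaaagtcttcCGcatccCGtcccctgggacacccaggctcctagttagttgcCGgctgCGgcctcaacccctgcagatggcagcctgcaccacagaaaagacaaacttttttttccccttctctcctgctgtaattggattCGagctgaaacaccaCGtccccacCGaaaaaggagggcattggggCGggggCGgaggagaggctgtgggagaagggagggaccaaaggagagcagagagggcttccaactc
Mmp25 promoter, chr17:23645220-23645519, minus strand: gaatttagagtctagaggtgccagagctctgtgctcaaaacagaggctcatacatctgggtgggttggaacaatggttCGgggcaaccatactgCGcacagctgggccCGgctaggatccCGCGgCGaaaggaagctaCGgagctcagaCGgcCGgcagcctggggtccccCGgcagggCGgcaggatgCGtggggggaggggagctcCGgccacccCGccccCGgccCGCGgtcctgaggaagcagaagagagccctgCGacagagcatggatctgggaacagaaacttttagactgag
Adam10 promoter, chr9:70678732-70679031, plus strand: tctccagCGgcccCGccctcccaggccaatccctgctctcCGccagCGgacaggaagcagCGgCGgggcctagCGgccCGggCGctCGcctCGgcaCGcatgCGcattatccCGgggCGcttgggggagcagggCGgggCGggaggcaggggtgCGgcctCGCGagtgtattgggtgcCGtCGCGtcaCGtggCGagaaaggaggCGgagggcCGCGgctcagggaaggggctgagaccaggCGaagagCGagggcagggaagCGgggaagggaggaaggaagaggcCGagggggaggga
Timp2 promoter, chr11:118355362-118355661, minus strand: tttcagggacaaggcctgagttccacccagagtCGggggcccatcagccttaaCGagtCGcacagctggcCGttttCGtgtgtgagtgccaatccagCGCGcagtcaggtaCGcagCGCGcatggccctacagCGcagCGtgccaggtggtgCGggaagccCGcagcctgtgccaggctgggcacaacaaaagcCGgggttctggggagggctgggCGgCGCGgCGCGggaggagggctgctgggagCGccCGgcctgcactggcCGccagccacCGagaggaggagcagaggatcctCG
Adamts2 promoter, chr11:50601835-50602134, plus strand: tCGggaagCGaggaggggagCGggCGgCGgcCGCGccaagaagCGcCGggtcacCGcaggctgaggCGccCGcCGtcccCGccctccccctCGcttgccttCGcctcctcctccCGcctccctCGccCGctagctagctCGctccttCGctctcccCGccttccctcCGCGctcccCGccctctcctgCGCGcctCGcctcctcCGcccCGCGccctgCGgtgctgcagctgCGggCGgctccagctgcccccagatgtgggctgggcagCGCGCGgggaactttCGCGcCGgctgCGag
The Mmp13 and Mmp3 windows hold 1 CpG each, Mmp14 has 10, Mmp25 has 18, Timp2 has 25, Adam10 has 32 and Adamts2 has 41.

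Regions with more Control than cKO signal were found at 39 of the 85 genes (45.9%), close to the 47.4% of all protein-coding genes. A region with a caller FDR of at most 5% was found at 23 of them (27.1%, against 35.1% of all protein-coding genes). The FDR is the estimate that MACS, the peak caller, reports from the regions it finds with the libraries swapped. By family, a region lay in or within 5 kb of 14 of 19 Adamts genes, 14 of 34 Adam genes, 8 of 23 Mmp genes, 2 of 5 Adamtsl genes and 1 of 4 Timp genes. With an FDR of at most 5% the Adamts count fell to 6 (31.6%) and the Adam count to 11 (32.4%), which removes the gap between the Adamts and Adam families. The Mmp and Adamtsl counts fell to 4 and 1. The number of regions per gene was uneven: 18 genes had 1 region, 11 had 2, 5 had 3, 2 had 4, and Adamtsl1, Adam19 and Adamts2 had 5, 6 and 7. The 10 genes with the most regions took 50.6% of the 81 pairings of a region with a gene, in which 1 region counts for both Adam9 and Adam32.

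Gene length moved with these counts. The 39 genes with a region had a median span of 67.4 kb and the 46 without one 10.7 kb, beside 17.2 kb for all protein-coding genes. Among genes of at most 17.2 kb, 7 of the 38 members had a region (18.4%), against 29% of all protein-coding genes of that length. The 29% takes in genes of at most 1.54 kb, of which 8.5% had a region and among which there was no member. Of the 38 members, 16 spanned 7.38 to 11.7 kb and 9 spanned 11.7 to 17.2 kb. In those classes 25% and 22.2% of the members had a region, against 38.9% and 45.6% of all protein-coding genes. Among longer genes, 32 of 47 members had one (68.1%), against 65.7%. Of these 47, 17 spanned 109 kb or more, where 88.2% of the members and 85.3% of all protein-coding genes had a region. Those members held a mean of 2.41 regions, against 3.79. In the classes from 17.2 to 109 kb the members' shares were 33.3%, 50%, 61.5% and 71.4%, against 48.5%, 56%, 63.8% and 74.9%. Per 100 kb of widened span, the members held 1.16 regions and all protein-coding genes 1.95. A gene without a region may have been unmethylated in Control, methylated alike in both genotypes or more methylated in cKO. It may also have been too poor in CpG for capture or covered by too few Control tags. From a list of Control excess alone these and other possibilities cannot be told apart.

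**Figure D1:**
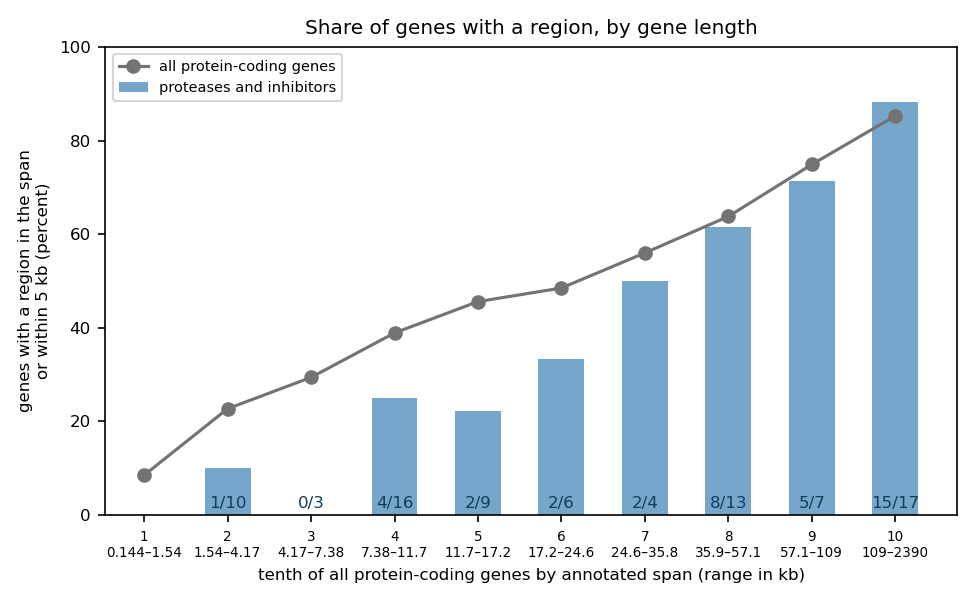
Share of genes with a region in the span or within 5 kb (y axis, percent), in 10 equal classes of all protein-coding genes ordered by annotated span (x axis, with the range in kb). Bars are the proteases and inhibitors with their counts, and the line is all protein-coding genes. Of the members of 109 kb or more, 15 of 17 had a region, and of those of 7.38 to 11.7 kb, 4 of 16.

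The 80 regions resembled the whole list in size and fold. Their median Control tag count was 98 (interquartile range 61.8 to 161), against 103 for all regions, and their median length was 474 bp, against 475. The fold, by which MACS compares Control signal at the peak with its local cKO background, had a median of 11.99 (8.19 to 16.99), against 12.18. The tag count, fold and FDR given for each region are the authors' deposited values. The ratio reached 20 or more in 14 regions (17.5%, against 21.5% of all regions), which belonged to 12 genes (14.1%, against 16.1% of all protein-coding genes). An FDR of at most 5% was listed for 37 of the 80 (46.2%, against 56.9%) and an FDR of 100% for 16 (20%, against 16.2%). The 37 had a median of 162 tags and the other 43 a median of 75. A high fold did not go with many tags, since the 14 regions of at least 20-fold had a median of 46.

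**Figure D2:**
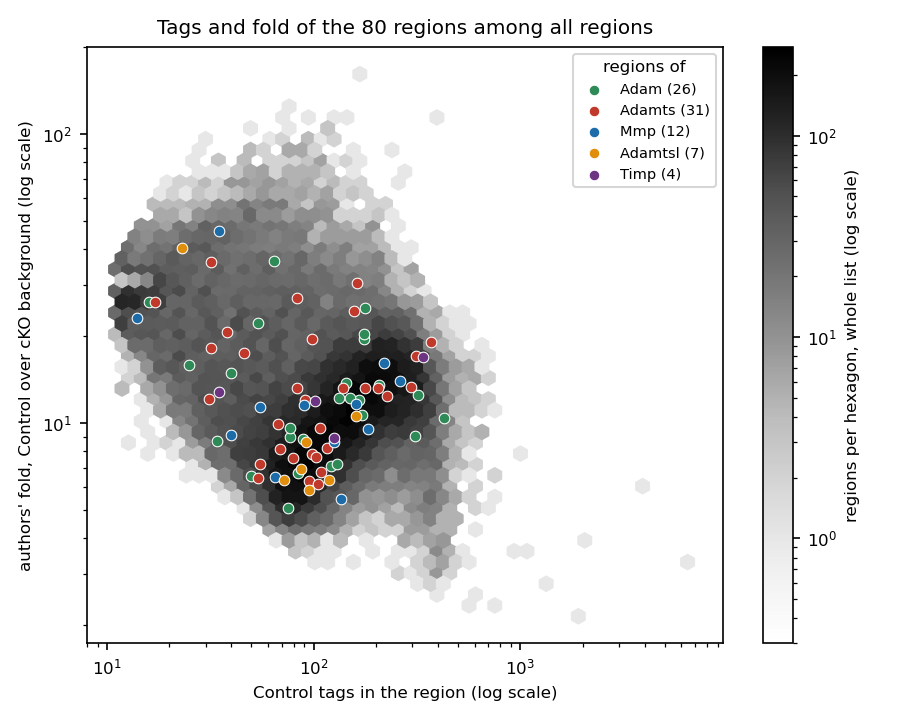
Control tags (x axis, log scale) and the authors' fold of Control over the cKO background (y axis, log scale) for each region. Grey hexagons count all regions and coloured points are the 80 regions of the proteases and inhibitors by family. The points lie within the main body of the list, between 14 and 429 tags and between 5.11-fold and 46.14-fold.

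The 6 membrane-type Mmp genes each had a region, 10 in all. With an FDR of at most 5%, 3 of the 6 had one (50%, against 35.1% of all protein-coding genes). Their median span was 24.5 kb, and of all protein-coding genes of 17.2 to 24.6 kb 48.5% had a region. The spans ran from 10.9 to 264 kb, and of all protein-coding genes of 109 kb or more 85.3% had a region. These enzymes are held at the cell surface, and Mmp14 among them activates pro-Mmp2 and cleaves collagen. Mmp14 (chromosome 14, 54431598 to 54442456) had 1 region within its span, at 54437470 to 54438054, 6.1 kb after the start. It held 220 Control tags (exact Poisson 95% interval 192 to 251, counting error only) at 16.11-fold with an FDR of 0%. The span of Mmp14 is 10.9 kb, so it was among the few short members with a region.

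Mmp25, a membrane-type enzyme known from leukocytes, had the most regions for its length, 11.13 per 100 kb of widened span. The strongest of its 3 regions lay 1.1 kb inside the gene (chromosome 17, 23643933 to 23644462), with 263 tags at 14.05-fold and an FDR of 0%. The next, 0.8 kb before the start, had 135 tags at 5.47-fold and an FDR of 82.14%, and the farthest, 2.1 kb before it, had 40 tags at 9.09-fold and an FDR of 100%. Both outer regions overlap the neighbouring gene Bicdl2. The region inside the gene and those before it lie on either side of the promoter window printed above without touching it, the closest being 0.3 kb away.

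Mmp15, another collagen-cleaving membrane-type enzyme, had both of its regions after the end of the gene. The nearer lay 751 bp past the end (chromosome 8, 95375045 to 95375516), with 125 tags at 8.63-fold and an FDR of 4.67%. The farther, 4272 bp past the end, was the region with the largest fold of all members, 46.14, on 35 tags (24.4 to 48.7) and an FDR of 1.52%. Mmp24 had regions 7.7 and 27.4 kb after its start, with 90 and 14 tags and an FDR of 6.7% and 100%. Mmp16, a gene of 264 kb, and Mmp17 had 1 region each within the span, at 9.56-fold and 6.53-fold with an FDR of 6.92% and 100%. At an FDR of at most 5%, Mmp14, Mmp15 and Mmp25 remained of the 6.

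The secreted and other Mmp genes had few regions: 2 of 17, Mmp1b and Mmp19. Their median span was 10.5 kb, and of all protein-coding genes of 7.38 to 11.7 kb 38.9% had a region. Of the collagenases, Mmp1b had 1 region 2138 bp before its start (chromosome 9, 7390165 to 7390570), with 55 tags at 11.39-fold and an FDR of 27.93%, whereas Mmp1a, Mmp8 and Mmp13 had none. Mmp13, the main collagenase of hypertrophic cartilage, was 106.8 kb from the nearest region. The gelatinases Mmp2 and Mmp9, which digest denatured collagen, and the stromelysins Mmp3, Mmp10 and Mmp11 had no region. The nearest regions to Mmp2 and Mmp9 were 29.9 and 18.1 kb away. Mmp19 had a region 1419 bp outside its span, on the side of the lower coordinate (chromosome 10, 128788883 to 128789490), with 161 tags at 11.67-fold and an FDR of 0.03%. Mmp7, Mmp12, Mmp20, the enamel protease, Mmp21, Mmp23, Mmp27 and Mmp28 had none.

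Of the Mmp genes without a region, 9 stand in a tandem block with Mmp1b on chromosome 9 (7272514 to 7699585). The block, 437.1 kb when widened by 5 kb, held 4 regions, or 0.92 per 100 kb, against 1.33 per 100 kb over the genome between the outermost genes and regions. The other 3 regions of the block lay between genes, more than 5 kb from any of them, and had 15, 90 and 135 tags. Outside the widened block the closest regions were 133.6 kb below and 69.3 kb above. The blocks were picked out after the values were known, so their counts are a description.

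The Adam gene blocks of chromosome 8 differed in gene length as well as in regions. In the block from Adam18 to Adam9 (24602246 to 25017040), 4 of 5 genes had a region, with 6 regions in 424.8 kb (1.41 per 100 kb). Adam9 counts only through the region inside Adam32. The 5 genes span 49.1 to 113 kb. Of all protein-coding genes of 35.9 to 109 kb 69.3% had a region, and of those of 109 kb or more 85.3%. The block of Adam24, Adam25, Adam20 and Adam39, 161.8 kb when widened by 5 kb, held no region. Its genes span 3.85 to 7.12 kb, and of all protein-coding genes of 1.54 to 4.17 kb and 4.17 to 7.38 kb 22.7% and 29.4% had one. Outside this block the closest regions were 9.4 kb below and 67.5 kb above. The block of Adam26b, Adam26a, Adam34l and Adam34, 193.6 kb when widened, held 1 region, more than 5 kb from each gene. Over the 10 tandem blocks and pairs among the members, 8 of 35 genes had a region (22.9%), against 31 of 50 members outside them (62.0%). Of all protein-coding genes 47.4% had one. Among genes of at most 17.2 kb the counts were 2 of 22 (9.09%) and 5 of 16 (31.2%), beside 29% of all protein-coding genes of that length. That 29% takes in genes of at most 1.54 kb, among which there was no member. Among longer genes the counts were 6 of 13 (46.2%) and 26 of 34 (76.5%), beside 65.7%.

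**Figure D3:**
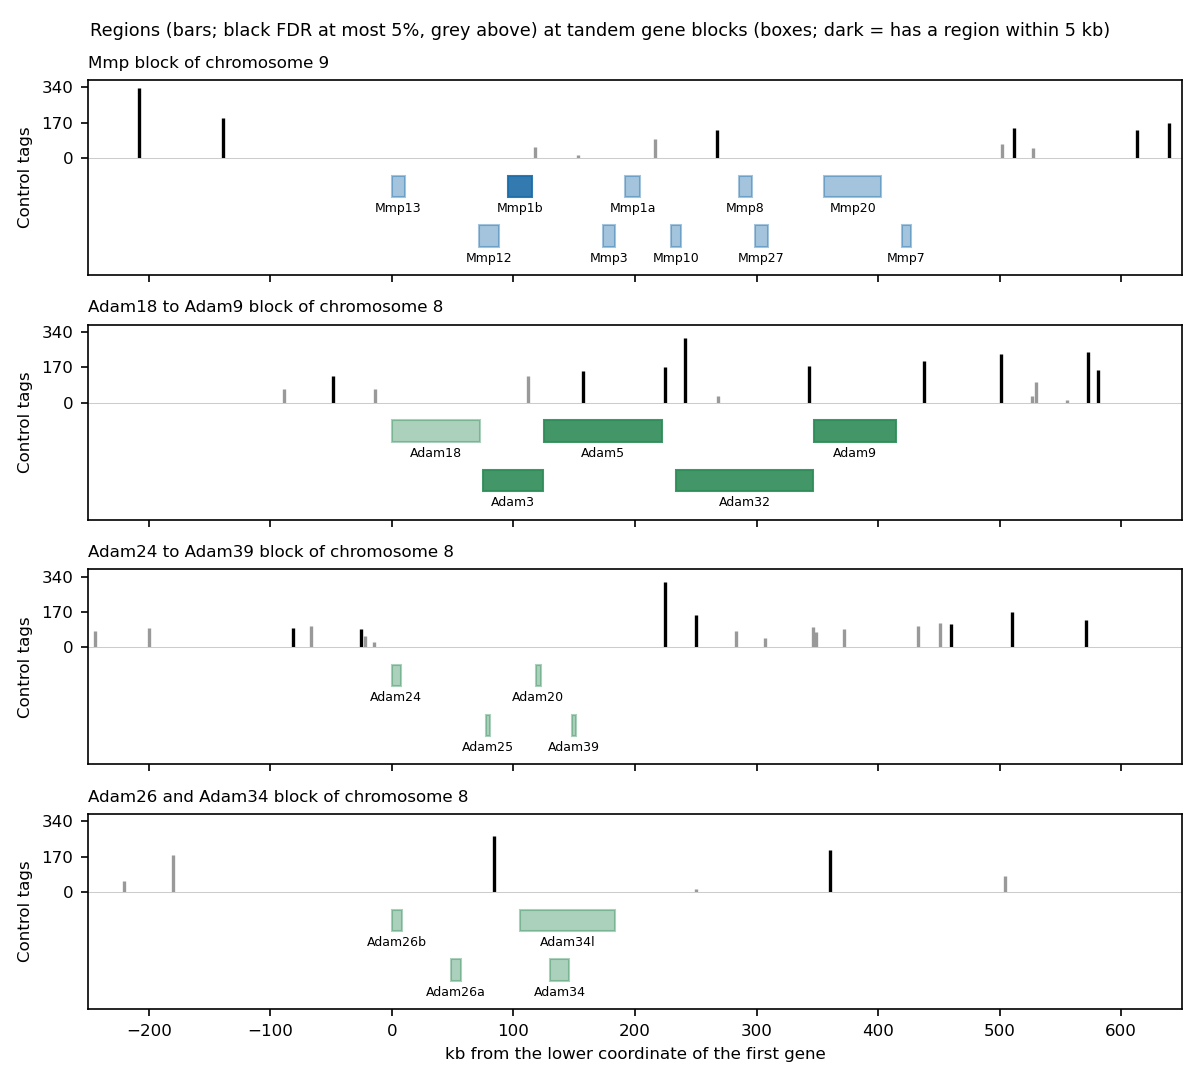
Regions (vertical bars, height in Control tags, black for an FDR of at most 5% and grey above it) and genes (boxes, dark where a region lies within 5 kb) along 4 tandem blocks, in kb from the first gene (x axis). The Mmp block has 1 dark gene of 10, and the Adam18 to Adam9 block has 4 of 5.

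Among the Adamts enzymes that cut aggrecan, versican and related proteoglycans, 4 of 7 had a region. Their median span was 23.3 kb, and of all protein-coding genes of 17.2 to 24.6 kb 48.5% had a region. Only Adamts20 had one with an FDR of at most 5%, which 35.1% of all protein-coding genes had. Adamts5, the main aggrecanase of mouse cartilage, had no region, and the nearest was 59 kb away. Adamts4, another aggrecanase, had 1 region, 4160 bp outside its span, with 79 tags at 7.59-fold and an FDR of 61.41%. Adamts1, a proteoglycanase and the neighbour of Adamts5 on chromosome 16, had 1 region 4.3 kb after its start, with 116 tags at 8.2-fold and an FDR of 5.31%. Adamts9, a versican-cleaving enzyme, had regions 33.5 and 87.1 kb after its start, with 83 and 67 tags, at 13.2-fold and 9.94-fold and an FDR of 5.21% and 100%. Adamts8 and Adamts15, neighbours on chromosome 9, had none.

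Adamts20, a versican-cleaving enzyme known for its part in pigment cell development, had 4 regions, each with an FDR of at most 1.96%. The strongest (chromosome 15, 94415590 to 94416458) held 369 tags (332 to 409) at 19.14-fold. It lay within the annotated span but 11.6 kb before the start given in the promoter table. The other 3 lay 52.4, 62.2 and 68.2 kb after that start, with 107, 177 and 297 tags at 9.64-fold, 13.23-fold and 13.4-fold. The region of 107 tags had the FDR of 1.96%, and the other 3 had 0%.

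Adamts2, which removes the amino-terminal propeptide of fibrillar procollagens, had more regions than any other member. Its 7 regions were spread over the gene (chromosome 11, 50602085 to 50807573), with their summits between 35.1 and 195.9 kb after the start and 7.0 to 51.4 kb apart. In order from the start they had 226, 156, 138, 31, 162, 91 and 32 tags. Their folds in that order were 12.46, 24.45, 13.28, 12.16, 30.55, 12.06 and 36.25. Of the 7, 5 had an FDR of at most 2.81%, the region of 91 tags had 8.92% and the region of 31 tags had 100%. The other procollagen N-proteinases had 1 region each, both with an FDR of 100%. That of Adamts3, the enzyme that processes procollagen II, lay 180.4 kb after the start with 55 tags at 7.26-fold, and that of Adamts14 lay 2920 bp past the end with 32 tags at 18.22-fold. With spans of 210 and 205 kb, Adamts3 and Adamts2 are nearly equal in length and had 1 and 7 regions.

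The 4 Adamts enzymes grouped here as linked to fibrillin microfibrils each had a region, at a median span of 214 kb. Of all protein-coding genes of 109 kb or more, 85.3% had one. The Adamtsl genes were kept as a group of their own, so this count does not cover every member that may be linked to fibrillin. Adamts10 (chromosome 17, 33523646 to 33553782) had regions of 38 and 83 tags at 20.66-fold and 27.11-fold, with an FDR of 11.68% and 0%, in a span of 30.1 kb. Adamts17 had 3 regions 150.8, 154.0 and 238.5 kb after its start, with 95, 46 and 98 tags at 6.32-fold, 17.57-fold and 19.57-fold and an FDR of 75.61%, 14.63% and 0.1%. Adamts6 had 3 regions of 98, 103 and 109 tags at 7.82-fold, 7.63-fold and 6.77-fold, with an FDR of 21.78%, 11.28% and 4.86%. Adamts19 had 1 region of 69 tags at 8.17-fold with an FDR of 21.11%. The enzymes that cleave cartilage oligomeric matrix protein differed: Adamts7 had 1 region within its span (105 tags, 6.17-fold, FDR 17.59%), whereas Adamts12, although 284 kb long, had none within 47.7 kb. Adamts13, which cleaves von Willebrand factor, had 1 region of 54 tags at 6.45-fold with an FDR of 100%. Adamts18 had 3 regions, of which those of 312 and 204 tags had an FDR of 0% at 17.06-fold and 13.2-fold, and the other, of 17 tags, had 26.37-fold and an FDR of 94.95%. Adamts16, of 114 kb, had none.

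The Adamtsl proteins share the ancillary domains of Adamts enzymes but have no protease domain. Adamtsl1, the longest member at 915 kb, had 5 regions, none with an FDR of at most 5%. They lay in the part of the span nearest the higher coordinate, from 72.7% to 98.5% of its length. Their tag counts were 23, 95, 72, 87 and 119 in that order, and the region of 23 tags had a 40.32-fold ratio whereas the other 4 lay between 5.87-fold and 6.95-fold. Their FDR in that order was 24.23%, 34.97%, 100%, 54.67% and 61.96%. Adamtsl3 had a region 59.7 kb after its start with 160 tags at 10.61-fold (FDR 0.07%) and another near its far end with 92 tags at 8.64-fold (FDR 25.4%). Adamtsl2, Adamtsl4 and Adamtsl5 had none.

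Of 9 Adam genes grouped here as active proteases, 7 had a region. Their median span was 50.9 kb, and of all protein-coding genes of 35.9 to 57.1 kb 63.8% had one. Adam19, a sheddase of membrane-bound growth factors, had 6 (chromosome 11, 46054502 to 46147347), 13.8 to 96.6 kb after its first annotated start, the last beyond the end of the gene and overlapping Nipal4. The strongest, 89.0 kb after that start (46143283 to 46143856), had 178 tags at 25.14-fold with an FDR of 0%, and that of 132 tags had 12.23-fold and an FDR of 0.07%. The other 4 had 89, 75, 84 and 77 tags in order from the start, at 8.84-fold, 5.11-fold, 6.71-fold and 9.65-fold and an FDR of 14.52%, 100%, 100% and 10.63%. Adam12, a gene of 342 kb that is expressed in mesenchymal cells, had 2 regions of 121 and 206 tags at 7.11-fold and 13.62-fold, with an FDR of 19% and 0%.

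The principal sheddases Adam10 and Adam17 differed in what they carried. Adam10, which cleaves Notch receptors, had a region 803 bp before its span (chromosome 9, 70677829 to 70678140) with 40 tags at 14.89-fold and an FDR of 42.74%, 0.6 kb from the promoter window printed above. Its second region, 65.8 kb after the start, had 166 tags at 12.04-fold and an FDR of 0%. Adam17, which releases tumour necrosis factor, had 1 region 43.5 kb after its start, with 77 tags at 8.95-fold and an FDR of 42.73%. Adam15 had 1 region 4031 bp past its end, within the neighbouring gene Efna4, with 64 tags at 36.42-fold and an FDR of 0.02%. Adam9 had the region it shares with Adam32, in whose span that region lies. Adam28 had 1 outside its span, of 50 tags at 6.57-fold with an FDR of 100%, and Adam8 and Adam33 had none.

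Adam22 and Adam23, neural adhesion proteins without protease activity, had 2 regions each, and Adam11 had none, the nearest lying 5.3 kb away. The stronger region of Adam22 (chromosome 5, 8073076 to 8073668) lay 729 bp from the far end of the gene, with 175 tags at 19.55-fold and an FDR of 0%. Its other region had 16 tags at 26.37-fold and an FDR of 100%. Adam23 had regions of 54 and 25 tags at 22.19-fold and 15.9-fold, with an FDR of 2.79% and 100%.

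The remaining 22 Adam genes, most of them known from testis and sperm, had a region in 5 cases, at a median span of 8.35 kb, and 38.9% of all protein-coding genes of 7.38 to 11.7 kb had one. Adam2, a subunit of the sperm surface protein fertilin, had the region with the most tags of all members, 429 (389 to 472) at 10.41-fold with an FDR of 0%, 1437 bp outside its span (chromosome 14, 66024907 to 66025884). Its second region, within the span, had 144 tags at 13.83-fold and an FDR of 0.03%. Adam32 had 3 regions, of 310, 34 and 175 tags at 9.02-fold, 8.72-fold and 20.4-fold with an FDR of 0%, 100% and 0%, and the region of 175 tags is the shared one. Adam5 had 2 of 150 and 172 tags with an FDR of 0.16% and 0%, Adam3 had 1 of 130 tags with an FDR of 21.11%, and Adam1b had 1 of 319 tags at 12.57-fold, 4661 bp before its start and within Tmem116. Of the 22, 14 span at most 20 kb and 1 of these 14, Adam1b, had a region. Adam1a, Adam4, Adam6a, Adam6b, Adam7, Adam18, Adam20, Adam21, Adam24, Adam25, Adam26a, Adam26b, Adam29, Adam30, Adam34, Adam34l and Adam39 had none.

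Among the inhibitors, Timp2 had 4 regions and Timp1, Timp3 and Timp4 had none. Timp2 inhibits metalloproteinases and also takes part in the activation of pro-Mmp2 by Mmp14. The region with the most tags lay at the far end of the gene (chromosome 11, 118301250 to 118301867), 189 bp inside it, with 339 tags (304 to 377) at 16.97-fold and an FDR of 0%. A region 13.6 kb after the start had 102 tags at 11.95-fold and an FDR of 0.13%, and overlaps the gene Cep295nl. One 4.3 kb before the start had 125 tags at 8.9-fold and an FDR of 0.73%, and one 34.5 kb after it had 35 tags at 12.87-fold and an FDR of 100%. Timp3, which binds to the matrix and inhibits Adamts4 and Adamts5, has a span of 49.1 kb, close to the 54.4 kb of Timp2, and its nearest region was 322.5 kb away. Timp1, on the X chromosome, and Timp4 were 27.3 and 22.9 kb from the nearest region.

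**Figure D4:**
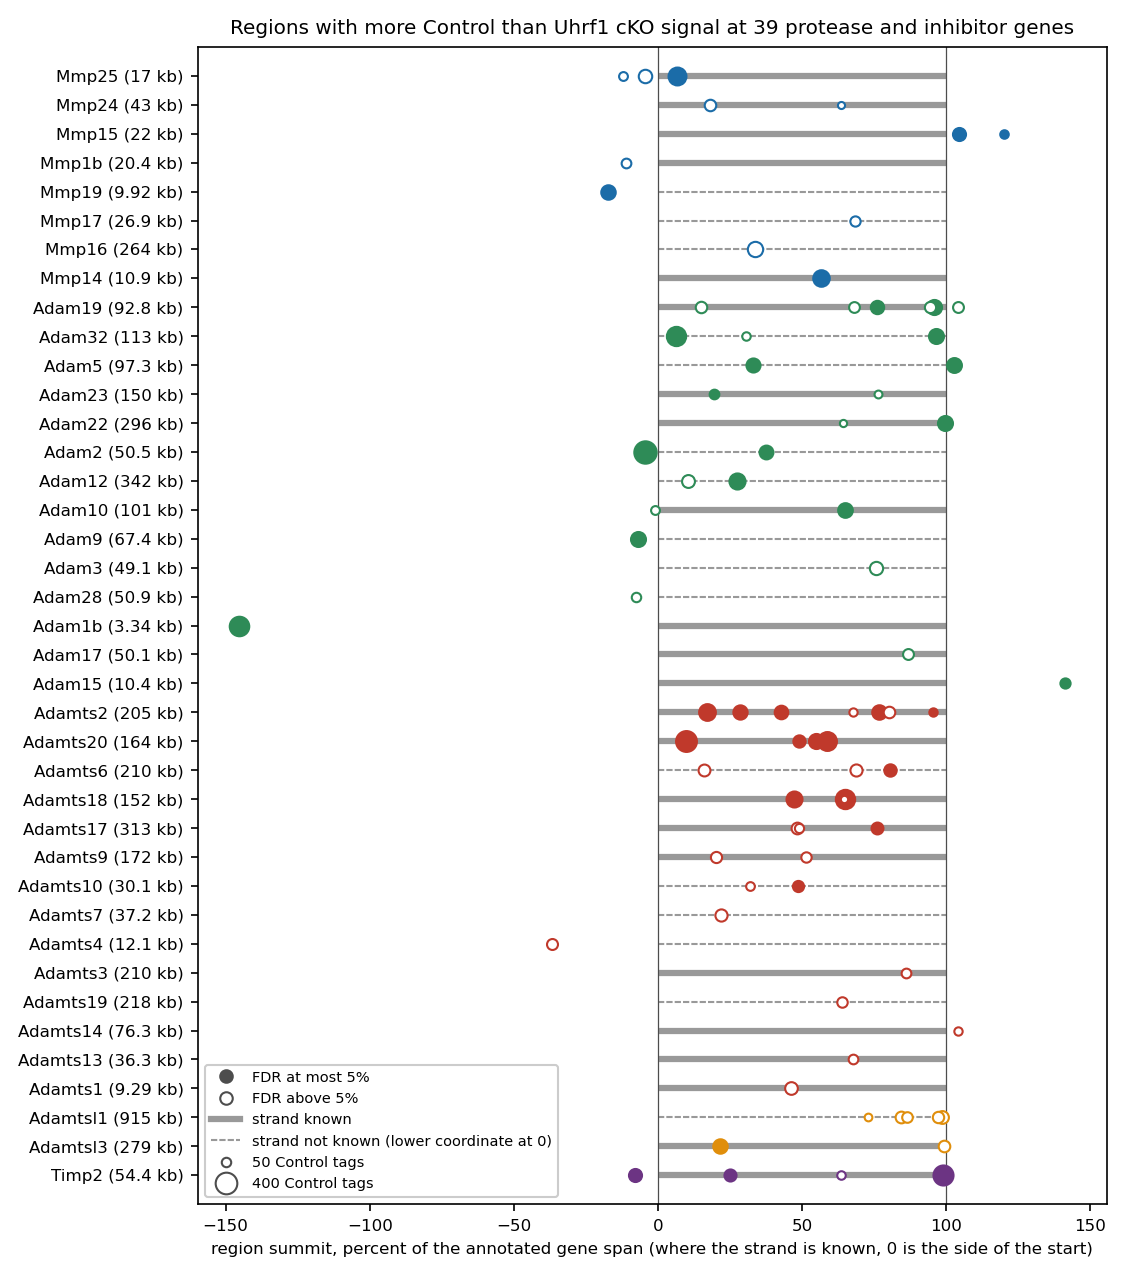
Summits of the regions along the 39 genes that had one, as a percent of the annotated span (x axis), with the span in kb beside each name. Filled points have an FDR of at most 5%, open points a higher one, and the point size follows the Control tags. Regions spread through the long Adamts genes, whereas the regions of Mmp15 lie past the end and the strongest of Timp2 lies at the end.

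Of the 81 pairings, 64 lay in the span (79%, against 80.9% over all protein-coding genes) and 17 in the 5 kb on either side. The spans made up 87.8% of the length searched. Per 100 kb there were 1.04 pairings in the members' spans and 2.0 in their flanks, against 1.91 and 2.16 for all protein-coding genes. A region within 1 kb of either end of the gene was found for 5 members, Adam10, Adam22, Mmp15, Mmp25 and Timp2, beside 9.64% of all protein-coding genes. Within 500 bp of an end there was 1 such member, and within 2 kb there were 8. For Adam22, Mmp15 and Timp2 that end was the far one. The strand was known for 23 genes with regions, and the summits of their 53 pairings lay a median of 59.7 kb from the first annotated start. Of the 42 in-span summits among these, 26 lay nearer the far end than the start (61.9%, against 53.6% of 15913 such summits over all protein-coding genes), and 2 lay in the first of 10 equal parts of the span (4.76%, against 8.60%). The members closest to the 5 kb limit on the inside included Adam1b and Adam9, at 4.7 and 4.3 kb, and on the outside Adam11, Adamtsl5 and Adam1a, at 5.3, 5.9 and 6.2 kb.

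None of the 59 promoter windows of the 54 members in the promoter table overlapped a region, and 1.20% of all 32851 windows did. Windows with 5 to 14 CpG overlapped a region more often over the whole table (2.91%) than those with fewer (0.616%) or more (0.483%), and 9 of the members' windows fell in that middle class, among them the Mmp14 window. With each gene placed by its window with the most CpG, 3 of 23 members with at most 4 CpG had a region in or near the gene (13.0%, against 19.2% of 4811 genes). Of the members with at least 15 CpG, 18 of 24 had one (75.0%, against 61.9% of 8748 genes). Length went with CpG here, with median spans of 10.1 and 52.2 kb for these members, and its part in the difference was not tested.

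**Figure D5:**
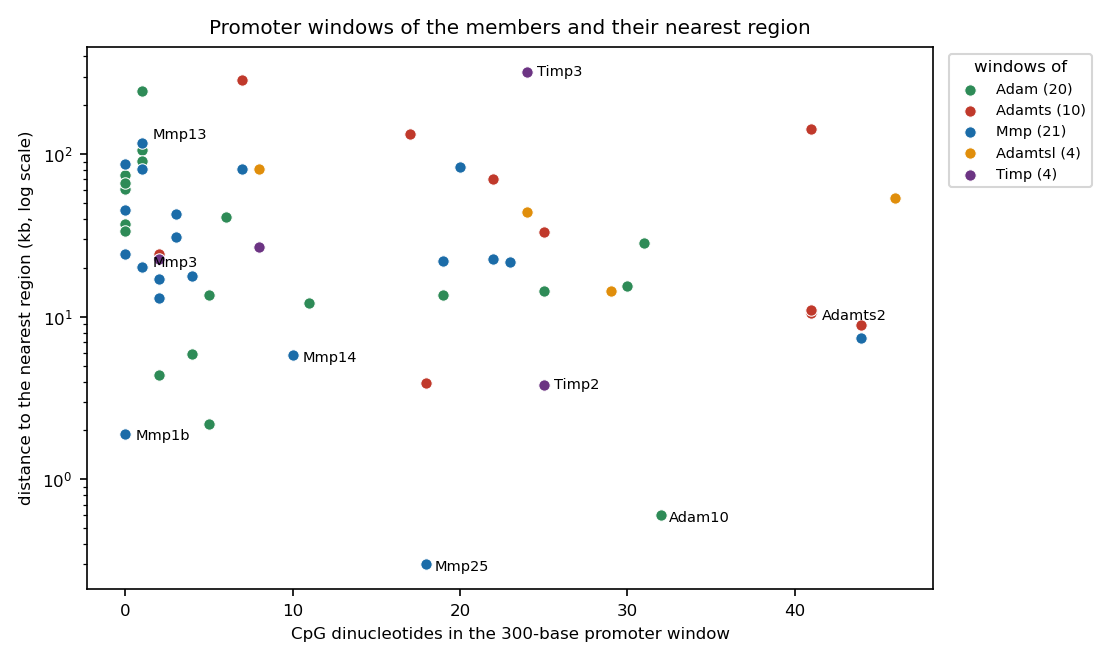
CpG dinucleotides in each promoter window of the members (x axis) and the distance from the window to the nearest region in kb (y axis, log scale), coloured by family. No window touches a region, the closest are those of Mmp25 at 0.3 kb and Adam10 at 0.6 kb, and that of Timp3 is the farthest at 322.2 kb.

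Many windows of the Mmp block on chromosome 9 share a sequence feature. The AP-1 motif TGAGTCA, searched on both strands (TGACTCA on the other), was present in 10 of the 59 members' windows (16.9%), against 5.20% of all windows. Of the 10 genes in the block, 7 had a match (Mmp1a, Mmp1b, Mmp3, Mmp7, Mmp10, Mmp12 and Mmp13), and Mmp8, Mmp20 and Mmp27 had none. Outside the block only Adam19, Adam1b and Adam29 had a match, so the share of 16.9% rests mostly on this block of related genes. In the sequences printed above, the match begins 35 bases before the start of Mmp13 and 46 before that of Mmp3. The motif contains no CpG, and the 12 windows of the block hold at most 7 CpG. A match describes letters in the window and is not a binding site.

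Other genes of matrix proteolysis were counted in the same way. Of 30 such genes, 21 had a region in the span or within 5 kb (70%, beside 47.4% of all protein-coding genes), and 13 had one with an FDR of at most 5%, which 35.1% of all protein-coding genes had. The median span of the 30 was 29.4 kb, and of all protein-coding genes of 24.6 to 35.8 kb 56% had a region. By group, these were 5 of 7 plasminogen system genes, 3 of 6 cathepsin and cystatin genes, 3 of 3 proprotein convertases, 3 of 4 procollagen C-proteinase genes, 3 of 4 other inhibitors and proteases, and 4 of 6 substrates. Pcsk6, a convertase that activates protease precursors, had 10 regions, 8 of them with an FDR of at most 5%. Vwf, the substrate of Adamts13, had 5, and Furin, the convertase that activates membrane-type Mmp and Adamts precursors, Serpine2, a protease inhibitor, and Pcsk5, another convertase, had 3 each. Of the cartilage substrates, Col2a1 had 1 region (328 tags, 8.65-fold), Acan had 1 (94 tags, 6.09-fold) and Comp had none. The chondrocyte label could not be checked by expression. Among its marker genes Col2a1 and Acan had a region, and Sox9, Matn1 and Comp had none. Regions also lay at 3 of 3 fibroblast and synovium markers, 2 of 2 blood markers and 1 of 2 endothelial markers. With 47.4% of all protein-coding genes having one, such counts say nothing of which cells were present.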

How the data were processed

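Regions were called by the authors with MACS 1.4.2, per the file headers, taking the Control reads as enriched and the cKO reads as background, with a p limit of 1e-10 and at most 1 tag per position. Tags measured 55 bp and the model's d was 58 bp, per the file headers. Coordinates are mm10 according to the submitters' processing notes. Which aligner was used is not given in the sources used here. The deposited tag count is the number of Control tags in a region. The score, minus 10 times the log10 of the p-value, the fold ratio and the FDR in percent are the caller's, per the file headers, and served to describe and filter regions. The list holds Control excess; cKO excess was not analysed here.

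Genes were matched by symbol in the RefSeq table of GRCm38.p6, which has no strand or exons, so exon and intron positions were not analysed here. Strand, starts and sequences came from RefSeq promoters (54 of 85 members matched). Poisson intervals (95%) cover counting error only. No test was run. The members and lists were chosen with earlier results of these data known. Every member is named; full values are given for members with a region within 1 kb of an end, the top 2 by regions in each role group, the 5 with the largest fold and the 3 densest with at least 3 regions. An overlap of 1 region with a further gene is not reported here. Overlap counting was tested on simulated data. The software was Matplotlib 3.10.9, SciPy 1.17.1, pandas 2.3.3, NumPy 2.4.6 and Python 3.11.15.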

Additional observations from a re-analysis of the deposited data

How the results depend on the processing

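No paired analysis was possible because each genotype had 1 library, and no replicate could be left out. Of 83 alternative values, 74 stayed within 1.5 times the reported count, or, for the median fold, within the binomial 95% interval of the median over regions (9.65 to 13.2). Most of the rest came with the limit of an FDR of at most 5%: members with a region fell from 39 to 23, pairings of a region with a member from 81 to 38, Mmp genes from 8 to 4, Adamts genes from 14 to 6 and Adamtsl genes from 2 to 1, and the median fold was 13.4. Without the added 5 kb, 5 Mmp genes had a region. With 500 bp around an end, 1 member had a region there, and with 2 kb 8 had one. The count of members with a region in the promoter window stayed at 0. Of the settings run for it, only joining regions closer than 1 kb could have raised it. These unchanged values, which are among the 74, are therefore no check of that count. A region of 35 tags has a counting interval of 24.4 to 48.7, which limits any order among genes with few tags.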
